A study of Mus musculus with 6 samples.

Results

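The genes described encode 10 receptors. Klrd1, Klrc1, Klrc2, Klrk1, Klre1, Klrg1, Klrb1c, Klra7 and Klra8 belong to the killer cell lectin-like family, which natural killer (NK) cells and CD8+ T cells share. Ncr1, an immunoglobulin-type receptor of NK cells, was included for comparison. All 10 were chosen by name and were found among the 35458 gene identifiers. RNA-seq was done on CD8+ T cells from mouse spleen, in 3 knockout (KO) libraries from Cd4creGlut10fl/fl mice and 3 control libraries from Cd4cre mice. Both groups carry the Cd4cre transgene, in which the Cd4 promoter drives Cre recombinase in developing T cells, and the KO mice also carry floxed Glut10, the name of the protein of Slc2a10. Age, sex and strain are not given in the sources used here, nor is it stated that each library is a mouse of its own. The p-values therefore measure the spread among these 6 libraries alone, and that spread may be technical. Strain matters here because mouse strains carry different sets of Klra genes.

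The killer cell lectin-like receptors are membrane proteins encoded in a gene cluster, the NK gene complex, on mouse chromosome 6. Inhibitory members carry a tyrosine motif in the cytoplasmic tail that recruits phosphatases, whereas activating members have short tails and signal through adaptor proteins. Most bind MHC class I or relatives of it, and CD8+ T cells acquire several of them after activation.

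Values are FPKM (fragments per kilobase of exon, scaled to the depth of the library). The depths implied by the values were 3420290, 14683400 and 3004540 fragments in KO 1, 2 and 3, against 11840600, 15020100 and 15036200 in control 1, 2 and 3. Slc2a10 had 0 implied reads in every KO library, against 4, 2 and 2 in control 1, 2 and 3, and at this depth a loss was not detectable. A count of 0 allows up to 3 reads, which for Slc2a10 is 0.246, 0.0572 and 0.280 FPKM in KO 1, 2 and 3. After thinning to 1 common depth, 62.2% and 66.5% of 905 olfactory and vomeronasal receptor genes had a read in KO 1 and KO 3 and 9.70% in KO 2, against 25.1%, 14.2% and 17.4% in control 1, 2 and 3. Cd8a, which encodes the CD8 alpha chain, measured 101, 252 and 90.7 FPKM in KO 1, 2 and 3, against 191, 30.3 and 31.8 FPKM in control 1, 2 and 3. The mean log2(FPKM + 1) of 11 neutrophil genes was 3.16, 1.76 and 3.75 in KO 1, 2 and 3, against 3.57, 7.64 and 8.73 in control 1, 2 and 3. KO 1 and KO 3 therefore stood apart by reads in sensory receptor genes, and control 2 and 3 by neutrophil genes and low CD8. KO 2 was also low in macrophage genes, whose mean log2(FPKM + 1) was 4.31, 1.31 and 5.36 in KO 1, 2 and 3, against 4.35, 4.36 and 3.44 in control 1, 2 and 3. Of these 11 genes, 0 passed, and their median log2 difference was -0.45, and 1.08 without KO 2. Of 4 B cell genes tested 0 passed, with a median of 1.17.

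Promoters are shown for receptors whose values are described below, as a view of the sequence in which the members resemble and differ from each other. RefSeq promoters (GRCm38.p6), which run from 250 bases before to 50 after the start, matched 8 members. Klrd1 and Klrg1 had no entry. Where a member had several starts, the one farthest upstream was used, whereas the background below counts every distinct promoter sequence. The Runx motif TGTGGT, on either strand, was in 6 of these 8, against 16.7% of 32544 promoters of that length. The T-box motif AGGTGT was in 0 of the 8, against 13.8% of all, and the Ets motif AGGAAG was in 1 of 8, against 35.1% of all. A match describes the letters only. Printed below, 5′ to 3′ with the Runx motif, or its reverse complement, in capitals, are Klrc1 (chr6:129678924-129679223, minus strand), Klrk1 (chr6:129623815-129624114, minus strand), Klrb1c (chr6:128788592-128788891, minus strand) and Ncr1 (chr7:4337465-4337764, plus strand), which hold it. The other two, Klra7 (chr6:130233273-130233572, minus strand) and its relative Klra9 (chr6:130193063-130193362, minus strand), hold no copy and were 82.6% identical over 224 aligned bases.
Klrc1: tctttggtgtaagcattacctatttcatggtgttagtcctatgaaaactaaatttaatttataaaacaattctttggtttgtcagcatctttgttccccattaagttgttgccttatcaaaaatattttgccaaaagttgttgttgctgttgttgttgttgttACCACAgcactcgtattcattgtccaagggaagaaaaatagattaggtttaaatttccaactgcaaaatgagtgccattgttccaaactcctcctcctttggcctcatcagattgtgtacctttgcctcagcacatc
Klrk1: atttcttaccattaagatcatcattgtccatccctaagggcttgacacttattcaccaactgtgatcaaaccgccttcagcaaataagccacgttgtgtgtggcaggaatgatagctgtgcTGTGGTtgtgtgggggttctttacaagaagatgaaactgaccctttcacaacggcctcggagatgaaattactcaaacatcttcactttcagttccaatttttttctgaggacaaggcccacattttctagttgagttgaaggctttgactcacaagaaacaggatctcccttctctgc
Klrb1c: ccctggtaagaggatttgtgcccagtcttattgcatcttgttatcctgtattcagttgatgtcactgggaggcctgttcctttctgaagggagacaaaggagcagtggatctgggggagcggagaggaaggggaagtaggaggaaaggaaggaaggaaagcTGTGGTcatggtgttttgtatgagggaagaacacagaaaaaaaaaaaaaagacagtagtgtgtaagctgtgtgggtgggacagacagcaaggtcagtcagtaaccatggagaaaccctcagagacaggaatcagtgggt
Ncr1: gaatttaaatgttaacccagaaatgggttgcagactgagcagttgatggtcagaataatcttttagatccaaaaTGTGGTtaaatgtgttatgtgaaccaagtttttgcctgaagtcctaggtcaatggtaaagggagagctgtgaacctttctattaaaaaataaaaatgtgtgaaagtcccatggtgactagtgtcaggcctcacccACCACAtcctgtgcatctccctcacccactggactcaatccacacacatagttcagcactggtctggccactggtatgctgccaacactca
Klra7: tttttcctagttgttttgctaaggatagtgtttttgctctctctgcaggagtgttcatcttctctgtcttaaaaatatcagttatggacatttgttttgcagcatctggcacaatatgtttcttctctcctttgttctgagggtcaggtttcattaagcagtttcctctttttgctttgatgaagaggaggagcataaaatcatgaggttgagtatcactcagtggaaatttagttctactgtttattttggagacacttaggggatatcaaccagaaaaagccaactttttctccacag
Klra9: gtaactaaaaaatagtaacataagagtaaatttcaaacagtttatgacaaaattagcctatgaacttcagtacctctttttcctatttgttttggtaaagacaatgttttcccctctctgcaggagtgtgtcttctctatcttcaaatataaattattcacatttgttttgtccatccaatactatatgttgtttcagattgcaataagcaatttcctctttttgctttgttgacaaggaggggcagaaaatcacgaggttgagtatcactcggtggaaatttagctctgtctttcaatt

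Klrd1 (ENSMUSG00000030165) encodes CD94, the common chain that pairs with NKG2 proteins to form receptors for the MHC class I-like molecule Qa-1. It had the highest FPKM of the members in every library. Klrd1 measured 119, 124 and 124 FPKM in KO 1, 2 and 3, or 522, 2339 and 476 implied reads, against 64.6, 23.4 and 5.56 FPKM in control 1, 2 and 3, or 980, 450 and 107 reads. The 3 KO libraries were nearly alike and all lay above the highest control, while the controls differed widely from one another. Means were 122 ± 2.83 FPKM in KO cells and 31.2 ± 30.3 FPKM in control cells (SD, n = 3 each). The log2 difference was 2.49 (SE 0.78, limma adjusted p = 0.417). Klrd1 therefore did not pass the threshold of 0.05. The 95% Poisson intervals, which cover counting error only, were 109 to 130, 119 to 129 and 113 to 135 FPKM in KO 1, 2 and 3, against 60.6 to 68.8, 21.3 to 25.7 and 4.55 to 6.71 FPKM in control 1, 2 and 3.

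At a limma adjusted p of 0.05, 0 of 13956 genes passed, or 0%, and 0 of the 6 members tested. Unadjusted limma p-values were under 0.05 for 1646 genes, among which Klrd1 was the only member. limma-voom on implied reads also called 0 genes, with 1396 at an unadjusted p under 0.05. Every KO library lay above every control for 1 tested member, Klrd1, and for 935 tested genes, or 6.7%, and below every control for 0 members and for 1317 genes, or 9.44%. The median log2 difference was 0.76 over the 6 tested members and 0.10 over all tested genes. Centred on T cell genes these medians were -0.42 and -1.08, and without KO 1 and 3 they were 0.09 and 0.01. The other 4 members did not have at least 1 FPKM in at least 3 libraries, and are given by their values and reads.

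**Figure D1:**
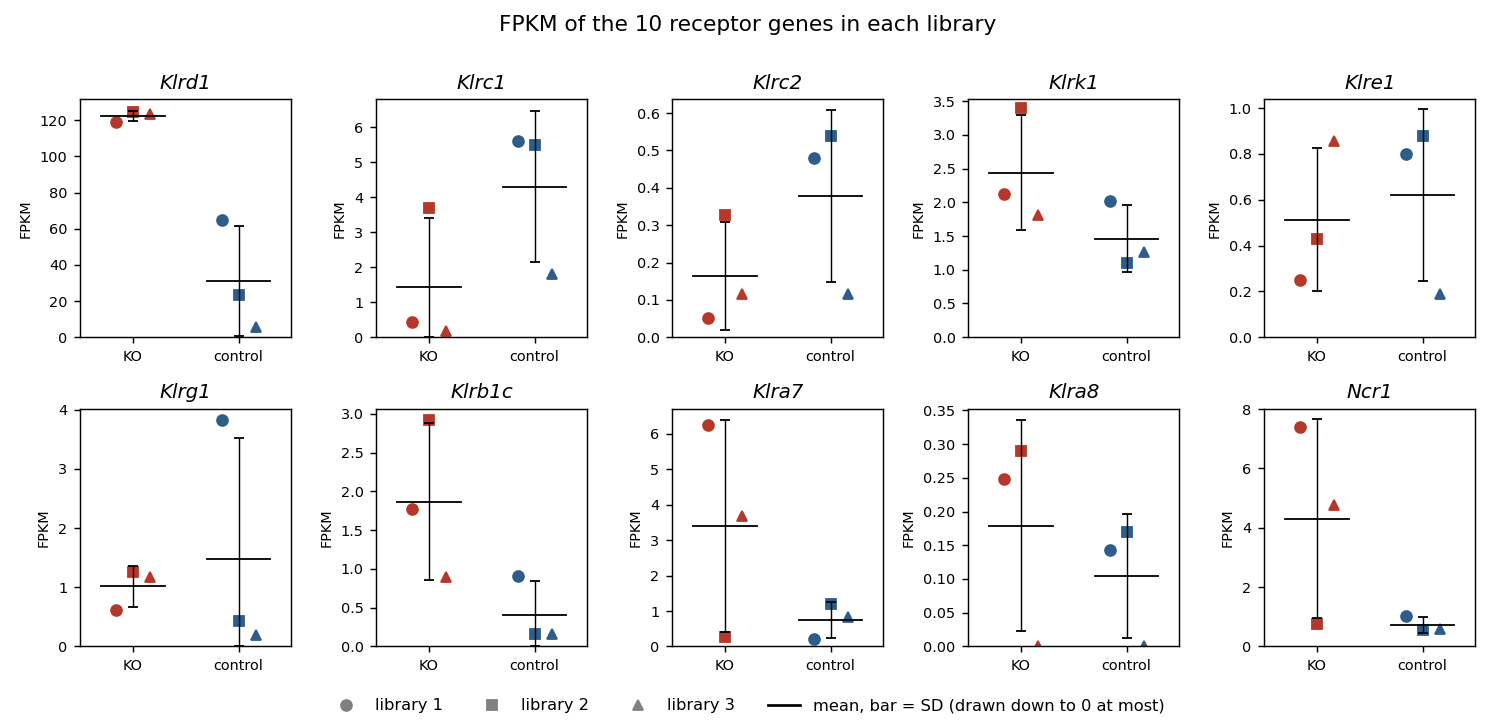
FPKM of each of the 10 receptor genes by library, with KO libraries to the left of control libraries; marker shape gives the library number, the line is the mean and the bar the SD (n = 3). Klrd1 is the only panel of a tested gene in which the groups do not overlap, with KO libraries at 119 to 124 FPKM and controls at 5.56 to 64.6 FPKM.

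In bulk RNA, fewer cells of a type and less RNA per cell cannot be told apart. T cell genes were low in the controls that were lowest in Klrd1. The mean log2(FPKM + 1) of 12 T cell core genes was 6.45, 7.10 and 6.32 in KO 1, 2 and 3, against 6.53, 5.05 and 4.76 in control 1, 2 and 3. Control 1 was near KO 1 and KO 3 in this mean, and its Klrd1 was 64.6 FPKM, against 119 FPKM in the lowest KO library. Without control 2 and 3, which leaves 1 control assumed to vary like the KO libraries, the log2 difference of Klrd1 was 0.91, against 2.49 with all libraries. Centred on the T cell core genes, it was 1.32 (SE 0.59, limma adjusted p = 0.228), with every KO library still above every control. That centring moved the median of all tested genes to -1.08. With it, every KO library lay above every control for 16 of 13956 tested genes and below for 4040. The part of T cell content in the difference was not tested.

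Set against single T cell genes, the ratio of Klrd1 to Cd3d, which encodes CD3 delta, was 0.692, 0.431 and 0.573 in KO 1, 2 and 3, against 0.422, 0.302 and 0.115 in control 1, 2 and 3. Against Cd3e it was 2.75, 1.98 and 3.71 in KO 1, 2 and 3, against 1.12, 1.59 and 0.406 in control 1, 2 and 3. The groups did not overlap in these ratios, but for Cd3d KO 2 and control 1 were nearly equal, at 0.431 and 0.422. Counting error was not taken into account, and the share of all genes that lie apart in such ratios was not computed. Against Cd8a the ratio was 1.18, 0.493 and 1.36 in KO 1, 2 and 3, against 0.339, 0.772 and 0.174 in control 1, 2 and 3, and there KO 2 lay below control 2. These ratios were chosen after the values were seen and have no test.

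**Figure D2:**
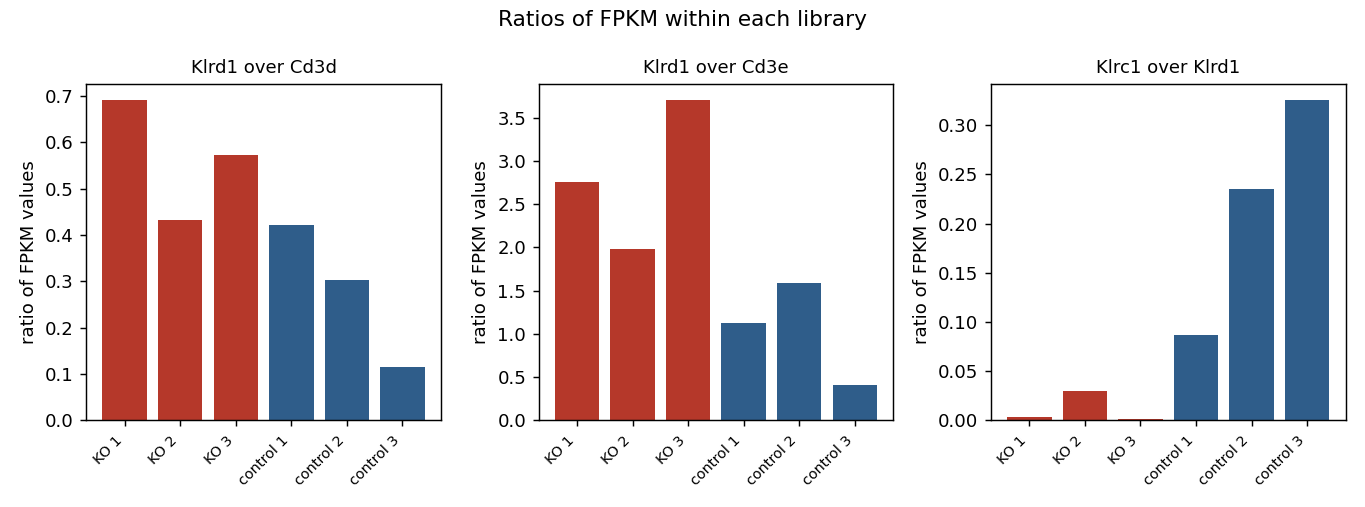
Ratio of FPKM values within each library (bars from 0) for Klrd1 over Cd3d, Klrd1 over Cd3e and Klrc1 over Klrd1, KO libraries in red on the left and controls in blue on the right. The ratio to Cd3d is at least 0.431 in KO libraries and at most 0.422 in controls. The ratio of Klrc1 to Klrd1 is at most 0.0298 in KO libraries and at least 0.0870 in controls. Klrd1, its divisor, is itself higher in every KO library than in any control.

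Klrc1 (ENSMUSG00000030167) encodes NKG2A, the inhibitory partner of CD94. It measured 0.442, 3.71 and 0.168 FPKM in KO 1, 2 and 3, against 5.62, 5.50 and 1.81 FPKM in control 1, 2 and 3. KO 1 and KO 3 were below all controls on 3 and 1 implied reads, whereas KO 2, with 108 reads, lay inside the control range. Means were 1.44 ± 1.97 FPKM in KO cells and 4.31 ± 2.17 FPKM in control cells (SD, n = 3 each), and the log2 estimate was -1.31 (SE 0.64, limma adjusted p = 0.417). Without KO 1 and 3 the difference was -0.07. Klrc1 thus had the opposite sign to Klrd1, its partner chain. The level of Klrc1 was 0.371%, 2.98% and 0.136% of that of Klrd1 in KO 1, 2 and 3, against 8.70%, 23.5% and 32.6% in control 1, 2 and 3, and the groups did not overlap in this ratio, also chosen after the values were seen. The low end of that share in KO 3 rests on 1 read. Klrd1, the divisor, was higher in every KO library than in any control, which by itself lowers the ratio in KO libraries.

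Klrc2 (ENSMUSG00000052736), which encodes NKG2C, the activating partner of CD94, was low throughout. It measured 0.0503, 0.328 and 0.115 FPKM in KO 1, 2 and 3, on 1, 28 and 2 reads, against 0.480, 0.538 and 0.114 FPKM in control 1, 2 and 3, on 33, 47 and 10 reads. Its order over libraries was close to that of Klrc1, with KO 2 the highest KO library and control 3 the lowest control. The groups overlapped. Klrc1 and Klrc2 are similar in sequence: 38.6% of the 50-base words of Klrc1 transcripts and 16.3% of those of Klrc2 occur in another gene, mostly in each other (GENCODE M21). How the authors' counting treated such reads is not given in the sources used here, so the split between the pair is uncertain, while Klrd1 and Klrk1 share 0% of these words.

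Klrk1 (ENSMUSG00000030149) encodes NKG2D, an activating receptor for stress-induced ligands of the Rae1, H60 and MULT1 families. It measured 2.12, 3.40 and 1.81 FPKM in KO 1, 2 and 3, against 2.02, 1.09 and 1.26 FPKM in control 1, 2 and 3, with 39 to 359 implied reads in each library. KO 3 lay below control 1, so the groups overlapped. Means were 2.44 ± 0.847 FPKM in KO cells and 1.46 ± 0.495 FPKM in control cells (SD, n = 3 each), and the log2 estimate was 0.48 (SE 0.32, limma adjusted p = 0.475). The sign turned when libraries were centred on T cell genes, to -0.70. Relative to Cd3e, Klrk1 stood at 4.89%, 5.41% and 5.42% in KO 1, 2 and 3, against 3.52%, 7.44% and 9.20% in control 1, 2 and 3, a range in which the KO values lie between the controls. By FPKM, Klrk1 was at most 2.74% of Klrd1 in the KO libraries, and 3.13%, 4.68% and 22.7% of it in control 1, 2 and 3. FPKM divides by exon length, here 7183 bases for Klrk1 and 1281 for Klrd1, so these shares depend on the annotation. In implied reads, Klrk1 had 52, 359 and 39 in KO 1, 2 and 3, against 522, 2339 and 476 for Klrd1. In control 3 it had 136, more than the 107 of Klrd1.

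Klre1 (ENSMUSG00000050241), a receptor that pairs with Klri1 or Klri2 to give inhibitory or activating dimers in mice, was under 1 FPKM in every library. It measured 0.251, 0.429 and 0.857 FPKM in KO 1, 2 and 3, against 0.798, 0.877 and 0.190 FPKM in control 1, 2 and 3. The groups covered the same range. Its partners Klri1 and Klri2 reached at most 1.40 and 0.510 FPKM.

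Klrg1 (ENSMUSG00000030114) is an inhibitory receptor for cadherins and a marker of short-lived effector CD8+ T cells. It measured 0.620, 1.25 and 1.18 FPKM in KO 1, 2 and 3, on 3, 26 and 5 reads, against 3.82, 0.424 and 0.188 FPKM in control 1, 2 and 3, on 64, 9 and 4 reads. Control 1 was the highest library and control 3 the lowest, with all KO libraries between them. The log2 difference was -0.01 (SE 0.57, limma adjusted p = 0.992), which depended on the libraries kept: it was 0.62 without control 1 and -1.27 without control 2 and 3. Its ligand Cdh1, E-cadherin, measured 1.92, 0.953 and 3.13 FPKM in KO 1, 2 and 3, against 3.10, 14.8 and 19.05 FPKM in control 1, 2 and 3, with a limma adjusted p of 0.417. KO 3 lay just above control 1, and the high values of Cdh1 were in control 2 and 3, where neutrophil genes were also high. The mean log2(FPKM + 1) of 7 erythroid genes was likewise highest there, at 0.54, 0.38 and 1.71 in KO 1, 2 and 3, against 0.68, 6.24 and 5.26 in control 1, 2 and 3. Their part in Cdh1 was not tested.

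Klrb1c (ENSMUSG00000030325) encodes the activating receptor known in C57BL/6 mice as NK1.1. It measured 1.78, 2.92 and 0.899 FPKM in KO 1, 2 and 3, on 18, 127 and 8 reads, against 0.913, 0.157 and 0.157 FPKM in control 1, 2 and 3, on 32, 7 and 7 reads. KO 3 and control 1 were nearly equal and the other KO libraries lay above all controls. With the filter on low values dropped, the log2 difference was 1.004 (SE 0.51, limma adjusted p = 0.465). Of its exons, 13.9% are shared with another annotated gene, Gm44511, on the same strand, and 17.0% of its 50-base words occur in another gene, so its value is uncertain.

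Ncr1 (ENSMUSG00000062524) encodes NKp46, which in mice marks NK cells and some other innate lymphocytes. It measured 7.40, 0.752 and 4.75 FPKM in KO 1, 2 and 3, on 39, 17 and 22 reads, against 1.04, 0.562 and 0.605 FPKM in control 1, 2 and 3, on 19, 13 and 14 reads. KO 1 and KO 3 lay above all controls and KO 2 among them. Means were 4.30 ± 3.35 FPKM in KO cells and 0.736 ± 0.266 FPKM in control cells (SD, n = 3 each), and the log2 estimate was 1.35 (SE 0.60, limma adjusted p = 0.417), and 0.02 without KO 1 and 3.

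Klra7 (ENSMUSG00000067599), the inhibitory receptor Ly49G, had the same high libraries. It measured 6.24, 0.269 and 3.68 FPKM in KO 1, 2 and 3, on 27, 5 and 14 reads, against 0.200, 1.21 and 0.841 FPKM in control 1, 2 and 3, on 3, 23 and 16 reads. KO 2 lay among the controls. The log2 difference was 1.05 (SE 0.68, limma adjusted p = 0.465), and -0.42 without KO 1 and 3. Klra8 (ENSMUSG00000089727), the activating receptor Ly49H, was close to the limit of detection, with 1, 5 and 0 reads in KO 1, 2 and 3 and 2, 3 and 0 reads in control 1, 2 and 3. Its values were at most 0.289 FPKM in KO cells and 0.170 FPKM in control cells, and a count of 0 allows up to 0.848 FPKM in KO 3 and 0.169 FPKM in control 3.

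When KO 2 was left out, 3 of the 6 tested members passed limma: Ncr1 at an adjusted p of 0.00811, Klra7 at 0.0302 and Klrc1 at 0.0409. In that fit 13% of all tested genes passed, so a call there is common, and its KO group consists of KO 1 and KO 3, the libraries with most sensory receptor genes detected. A total of 5981 of 35458 gene models of all types, and 2 of the 10 members, Klra7 and Ncr1, had at least 1 FPKM in KO 1 and KO 3 and under 1 FPKM in KO 2. The part of whatever sets KO 1 and KO 3 apart in Klra7, Klrc1 and Ncr1 was not tested. Without control 1, 2.6% of all tested genes passed and 0 members did, with Klrd1 nearest, at a log2 difference of 3.29 and a limma adjusted p of 0.0567.

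**Figure D3:**
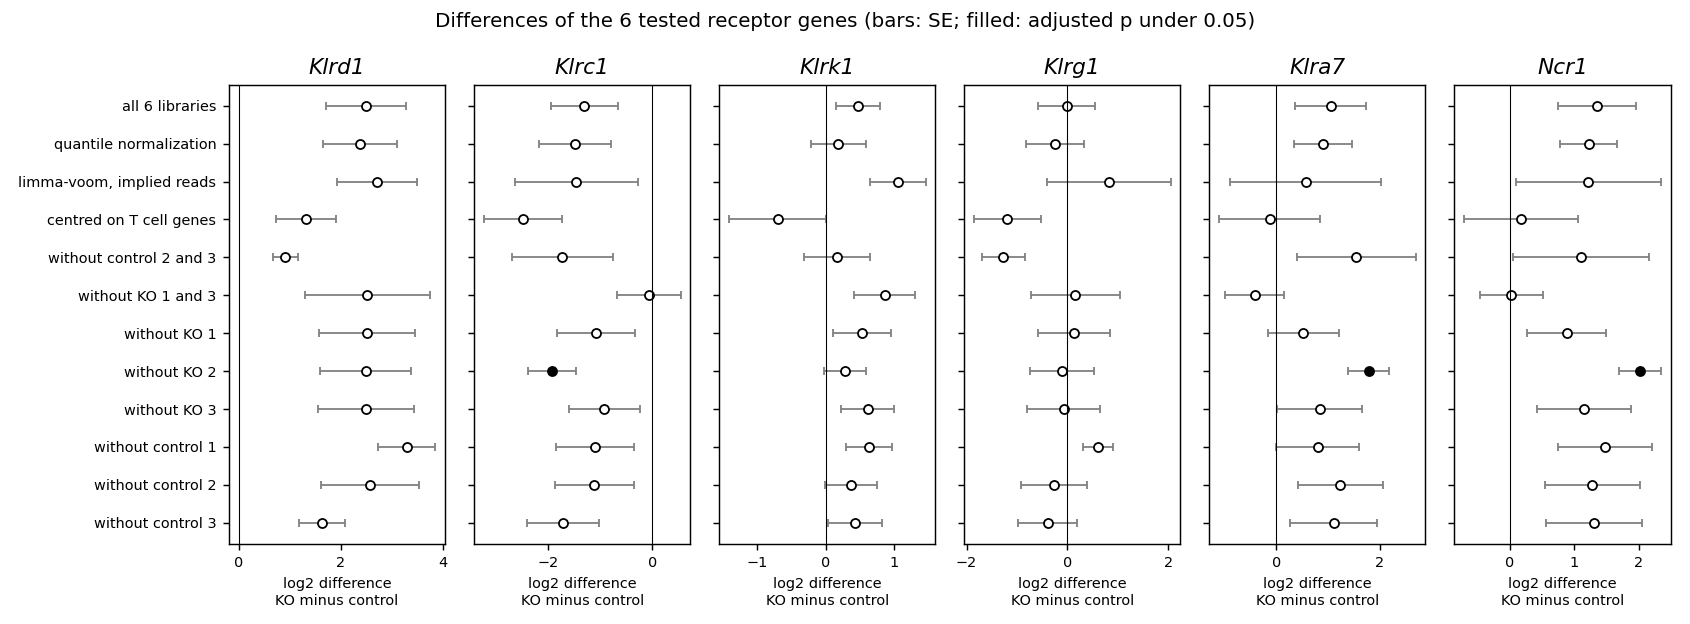
log2 difference, KO minus control, of the 6 tested receptor genes under 12 settings (points, with SE as bars; filled points have a limma adjusted p under 0.05, and with 1 library left in a group that library is assumed to vary like the other group). Klrd1 is above 0 in all 12, from 0.91 to 3.29, whereas Klrc1, Klra7 and Ncr1 have filled points without KO 2 and lie at -0.07, -0.42 and 0.02 without KO 1 and 3.

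Of the 20 other receptor genes listed, 18 were matched, of which 11 reached 1 FPKM in any library and 7 did not, and 6 were tested with 0 called. Among those 6 tested, 2 had higher and 4 lower estimates, the median log2 difference was -0.38 against 0.10 over all tested genes, and 1 had every KO library below every control, against 9.44% of tested genes. That gene was Klra2, Ly49B, known in mice from myeloid cells. It measured 0.616, 0.108 and 0.877 FPKM in KO 1, 2 and 3, against 1.42, 12.3 and 14.2 FPKM in control 1, 2 and 3, a log2 difference of -2.40 (limma adjusted p = 0.417). Its high libraries were control 2 and 3, the libraries high in neutrophil genes, whose part in Klra2 was not tested. Klra9, the inhibitory receptor Ly49I, measured 23.5, 0.160 and 13.5 FPKM in KO 1, 2 and 3, on 103, 3 and 52 reads, against 2.18, 1.72 and 0.780 FPKM in control 1, 2 and 3. It was the most abundant Klra gene of KO 1 and KO 3 and was at the 3-read floor in KO 2.

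In all, 6 of the 18 receptor genes had at least 1 FPKM in KO 1 and KO 3 and under 1 FPKM in KO 2: Klra4, Klra9, Klra10, Klra17, Klrb1 and Klrb1b. So did 5981 of all 35458 gene models. Klra17, Ly49Q, known from plasmacytoid dendritic and myeloid cells, was also 5.69 FPKM in control 3. Klrb1 had 12, 0 and 7 reads in KO 1, 2 and 3 and 1 read in each control. Klra3 reached 1.83 FPKM in control 2 and Klra13-ps, a pseudogene, 6.20 FPKM there, while Klrb1f and Klri1 reached 1.84 and 1.40 FPKM in control 1 and KO 1. Of the 50-base words of Klra9, Klra10 and Klra3, 31.5%, 39.8% and 20.7% occur in other genes, against 12.3% for Klra7 and 33.1% for Klra8, so the split of reads among Klra genes is uncertain.

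**Figure D4:**
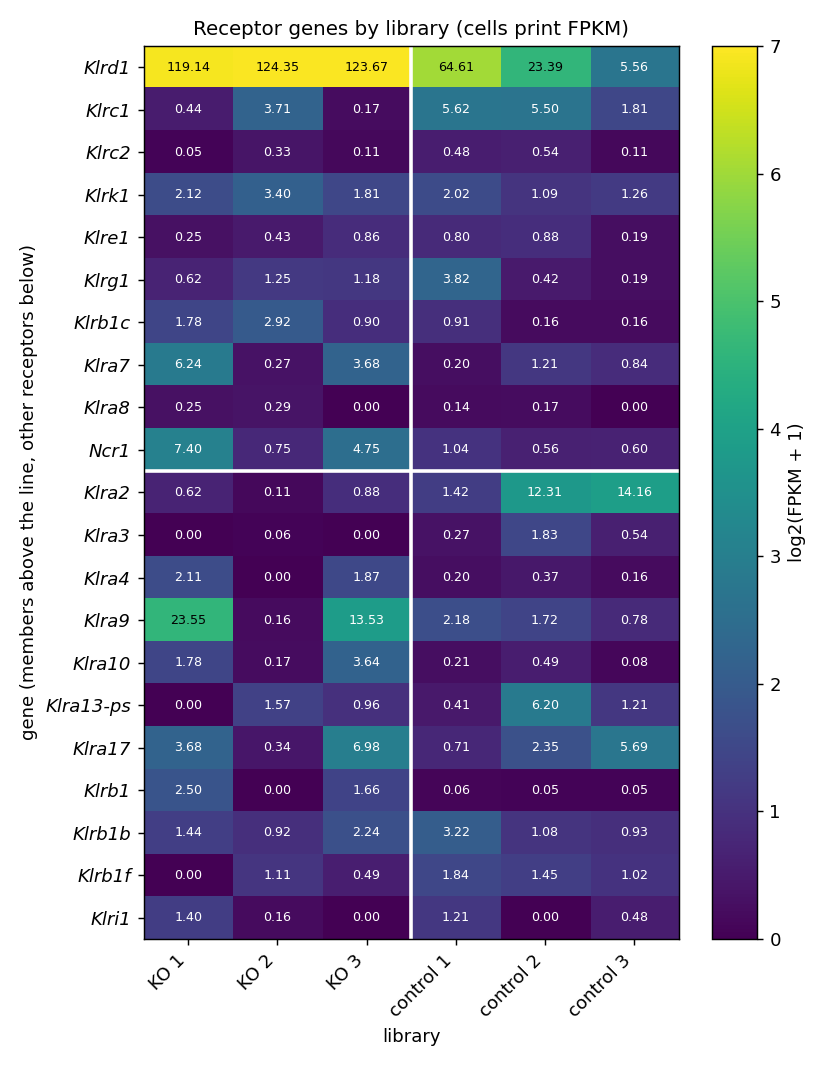
Heat map of log2(FPKM + 1), with FPKM printed in each cell, for the 10 members (above the white line) and the 11 other receptor genes that reached 1 FPKM in any library, KO libraries on the left. Klra9 reaches 23.5 FPKM in KO 1 and 13.5 FPKM in KO 3 against 0.160 FPKM in KO 2, and Klra2 reaches 12.3 and 14.2 FPKM in control 2 and 3.

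NK cell genes were low beside T cell genes in every library. The summed level of 10 NK genes (Ncr1 among them) was 19.8, 8.36 and 24.5 FPKM in KO 1, 2 and 3, against 8.94, 9.39 and 7.41 FPKM in control 1, 2 and 3. Of the 4 tested, 0 passed and 2 had higher estimates. For 1, the granzyme gene Gzmc, every KO library lay above every control, against 6.7% of all tested genes. Styk1 measured 2.24, 0.0697 and 3.35 FPKM in KO 1, 2 and 3, against 0.130, 0.250 and 0.125 FPKM in control 1, 2 and 3, and Itga2, the NK and platelet integrin CD49b, 1.46, 0.162 and 1.82 FPKM in KO 1, 2 and 3, against 0.361, 0.237 and 0.284 FPKM in control 1, 2 and 3. Both had at least 1 FPKM in KO 1 and KO 3 and under 1 FPKM in KO 2. That pattern was found in 5981 of all 35458 gene models, Ncr1, Klra7 and Klra9 among them. Other genes of the list had another order: Gzmc measured 5.63, 6.12 and 9.62 FPKM in KO 1, 2 and 3, against 3.98, 2.64 and 0.356 FPKM in control 1, 2 and 3, and Cd244a, the receptor 2B4, 0.839, 0.154 and 1.84 FPKM in KO 1, 2 and 3, against 1.42, 2.46 and 3.23 FPKM in control 1, 2 and 3. In KO 2, where Klrd1 was 124 FPKM, Gzmc was the only gene of the list to reach 1 FPKM. Genes of innate-like T cells summed to 46.5, 65.7 and 60.7 FPKM in KO 1, 2 and 3, against 68.9, 15.1 and 75.7 FPKM in control 1, 2 and 3, with 0 of 9 tested genes called. Klrd1 was 5.56 FPKM in control 3, where the sum was highest. The part of NK cells and of innate-like T cells in Klrd1 was not tested.

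The adaptor genes Hcst, Tyrobp and Fcer1g were abundant, with at least 33.4 FPKM in every library. Hcst, which encodes the NKG2D adaptor DAP10, measured 45.4, 67.7 and 77.0 FPKM in KO 1, 2 and 3, against 53.3, 47.95 and 38.3 FPKM in control 1, 2 and 3, with overlapping groups. Tyrobp, which encodes DAP12, the adaptor of activating Ly49 and CD94/NKG2C receptors and of many myeloid receptors, measured 108, 39.1 and 235 FPKM in KO 1, 2 and 3, against 136, 802 and 867 FPKM in control 1, 2 and 3. Its high libraries were control 2 and 3, as for the neutrophil genes. Of the 16 adaptor and signalling genes, all tested, 0 passed, 7 had higher and 9 lower estimates, the median was -0.16, and every KO library lay above every control for 2 and below for 3, against 6.7% and 9.44% of tested genes. The smallest p was that of Syk, a kinase used by DAP12, at 11.4, 6.07 and 8.96 FPKM in KO 1, 2 and 3, against 15.5, 30.6 and 43.7 FPKM in control 1, 2 and 3 (limma adjusted p = 0.417). Fcer1g, the adaptor of NK1.1, had a log2 difference of -2.46, and -0.77 without control 2 and 3. Lck, the kinase of the T cell receptor, measured 213, 257 and 202 FPKM in KO 1, 2 and 3, against 198, 56.7 and 44.1 FPKM in control 1, 2 and 3, and Inpp5d, the phosphatase SHIP-1, 13.9, 12.6 and 10.8 FPKM in KO 1, 2 and 3, against 20.1, 18.98 and 34.6 FPKM in control 1, 2 and 3.

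Of 12 ligand genes, 7 were tested, 0 passed, 5 had higher and 2 lower estimates and the median log2 difference was 0.24. H2-T23, which encodes Qa-1, the ligand of CD94/NKG2A, measured 96.9, 190 and 93.2 FPKM in KO 1, 2 and 3, against 164, 89.6 and 77.7 FPKM in control 1, 2 and 3, with overlapping groups. H2-K1, a classical MHC class I gene, had a log2 difference of 0.83, and -0.05 without control 2 and 3. Ulbp1, the NKG2D ligand MULT1, measured 3.83, 4.01 and 1.73 FPKM in KO 1, 2 and 3, against 3.44, 4.44 and 7.91 FPKM in control 1, 2 and 3. Clec2d, a ligand of Klrb1 receptors, measured 43.6, 73.6 and 49.9 FPKM in KO 1, 2 and 3, against 53.5, 44.1 and 30.2 FPKM in control 1, 2 and 3. H60c was listed at 0 in all 6 libraries, and none of the 7 passed the test.

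Genes of the effector and naive states put the receptors in context. Of 16 effector CD8 genes tested, 0 passed, and 12 had higher and 4 lower estimates, with a median of 0.16. That median was -0.59 without control 2 and 3, -1.02 centred on T cell genes and -0.04 after quantile normalization. The median of all tested genes was 0.10, and in the same settings -0.06, -1.08 and -0.12. Of 10 naive genes, 0 passed and all 10 had higher estimates, with a median of 1.22. Their median was -0.09 without control 2 and 3, 0.04 centred on T cell genes and 1.13 after quantile normalization. KO 2 and control 1 had the highest levels of Eomes and Prf1. Eomes, a T-box factor of memory CD8+ and NK cells, measured 7.74, 28.1 and 6.49 FPKM in KO 1, 2 and 3, against 23.9, 3.45 and 0.976 FPKM in control 1, 2 and 3. Prf1, perforin, measured 4.41, 9.88 and 3.35 FPKM in KO 1, 2 and 3, against 8.24, 2.11 and 1.03 FPKM in control 1, 2 and 3. These genes were chosen after their values were seen. In the same list Gzma and Nkg7 were also highest in KO 2 and control 1, whereas Gzmb, Gzmk, Gzmm and Ccl5 were not. Klrd1 was about as high in KO 1 and KO 3 as in KO 2. By the smallest p, Zeb2 had a log2 difference of -1.64, Ifng 1.74, Prdm1 0.92 and Gzmb -1.58 among effector genes, and Dapl1 2.27, Lef1 2.02, Il7r 2.35 and Klf2 2.07 among naive genes, all with a limma adjusted p of at least 0.417. Of these 8, those of Ifng, Prdm1 and Gzmb changed sign without KO 1 and 3, to -0.45, -0.10 and 1.19, and Klf2 without control 2 and 3, to -0.18.

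Likeness was taken on log2(FPKM + 1) less each gene's own mean over the 6 libraries, so differences between whole libraries were not removed. Among protein-coding tested genes, the nearest to Klrd1 were Lcn4, Ptprcap and Gimap9, at root mean square differences of 0.22, 0.46 and 0.47. Lcn4 measured 31.0, 27.7 and 34.4 FPKM in KO 1, 2 and 3, against 23.4, 5.68 and 1.12 FPKM in control 1, 2 and 3, the same order of controls as Klrd1. Nearest to Klrc1 were Atp6v0d2 and F7 (0.25 and 0.37), to Klrk1 Sytl1, Phf21b and Wbp1 (0.07, 0.07 and 0.08), to Klrg1 Mzb1, Pltp and 1500011B03Rik (0.21, 0.22 and 0.23), to Klra7 Gm12355, Hyal3 and Fam221a (0.24, 0.25 and 0.26), and to Ncr1 Ccdc78, Slamf8 and Ddah2 (0.11, 0.16 and 0.16). A likeness over 6 libraries of which several stand apart describes these libraries only.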

How the data were processed

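RNA-seq of CD8+ T cells from mouse spleen was analysed in 3 KO and 3 control libraries. Per the labels' protocols, Trizol was used for RNA and an NEBNext Ultra kit for the libraries. The submitters' processing notes list, without saying what each did, the build mm8 with HTSeq 0.6.0, HISAT2 2 and Bowtie2 2.2.3. How FPKM were made, the annotation and the strand setting are not given in the sources used here. FPKM, the unit of the deposited values, was read from the values themselves. Of 35458 identifiers, 35358 matched GENCODE M21, which gave symbols and exon lengths.

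Multiplied by exon length, values of under 200 implied reads lay within 0.02 read of a whole number in 92.1% to 93.4% of cases, and this step gave depths and implied reads. Implied reads summed to 8.31% to 12.3% more than the depths, so depths are approximate. No libraries of a group agreed within sampling noise (chi-square per gene at least 20.1).

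Tested were the 13956 genes that reached 1 FPKM in 3 or more libraries, on log2(FPKM + 1), a scale that understates changes of low genes, with limma 3.58.1 (R 4.3.3), a trended variance, no covariate beside the group, and Benjamini-Hochberg adjusted p-values at 0.05. Planned count models were not run, as the values are not counts. The deviations of same-numbered libraries correlated at 0.11, 0.02 and 0.02, so the numbers were not taken to pair the libraries. Members and lists were chosen with earlier results of these data known. Named were all members and other receptors with at least 1 FPKM in any library. From the adaptor, ligand, effector and naive lists, up to 4 genes were named by smallest p. Hcst, Tyrobp, H2-T23, Klri2, Cd8a, Cd3d, Cd3e, Eomes, Prf1, Gzma, Nkg7, Gzmk, Gzmm and Ccl5 were chosen after their values were seen. So were the NK genes Styk1, Itga2, Gzmc and Cd244a. Coordinates are those of the RefSeq table. A likeness value that the rule would name is not reported here. Python 3.11.15, numpy 2.4.6, pandas 2.3.3, scipy 1.17.1, Biopython 1.88 and matplotlib 3.10.9 were used.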

Additional observations from a re-analysis of the deposited data

How the results depend on the processing

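Under the 15 alternatives, the log2 difference of Klrd1 was above 0 throughout (0.91 to 3.29), with a limma adjusted p between 0.0567 and 0.997, and that of Klrc1 below 0 (-2.49 to -0.07). With each library left out in turn, 0 to 1821 genes passed (363 without control 1, 1821 without KO 2), 0 to 3 members passed, and 1 to 4 of the 6 members had groups that did not overlap, with 4 without control 1 and 4 without KO 2, where 43.1% and 45% of all tested genes did so. That number was 3 when centred on T cell genes (29.1% of all tested genes), 2 after quantile normalization (17.7%), 4 without control 2 and 3 (39.6%) and 2 without KO 1 and 3 (54.1%), against 1 with all libraries (16.1%). These shares take both directions together. Centred on T cell genes, KO libraries lay above for 1 member, Klrd1, and below for 2, against 16 and 4040 of 13956 tested genes. The members' median was -0.42 centred on T cell genes and 0.09 without KO 1 and 3. Klrg1 turned positive with a pseudocount of 0.1 (0.36), limma-voom (0.82) and without KO 1 and 3 (0.16), and ranged from -0.39 to 0.62 with single libraries left out. Klra7 turned to -0.13 centred on T cell genes and -0.42 without KO 1 and 3, and Klrk1 to -0.70 centred on T cell genes. The cause was not tested. With the replicate number as a block, 0 genes passed and Klrd1 had a limma adjusted p of 0.390; the numbers are not stated to pair the libraries. The median of all tested genes was -0.12 after quantile normalization. Depth limits Klrc1, Klrc2, Klre1, Klrg1 and Klra8 in KO 1 and KO 3, where 9 reads or fewer were behind each value.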

Other observations

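The stretch of chromosome 6 that spans the Klr members other than Klrg1 holds 63 of the identifiers, of which 22 were tested. Every KO library lay above every control for 3 of these and below for 1, against 6.7% and 9.44% of all tested genes. The lower one was Clec7a, which encodes Dectin-1, a receptor of myeloid cells for fungal glucans. It measured 5.10, 18.1 and 6.31 FPKM in KO 1, 2 and 3, against 51.9, 74.8 and 39.1 FPKM in control 1, 2 and 3, a log2 difference of -2.52 (SE 0.49, limma adjusted p = 0.417). Clec7a was thus high in control 1 too, where the mean log2(FPKM + 1) of neutrophil genes was 3.57, against 7.64 and 8.73 in control 2 and 3. The part of myeloid cells in Clec7a was not tested. Clec12a, an inhibitory receptor of myeloid cells, measured 2.64, 0.788 and 6.44 FPKM in KO 1, 2 and 3, against 2.95, 36.2 and 34.9 FPKM in control 1, 2 and 3. Cd69, an early activation antigen of lymphocytes, lay between 8.18 and 22.9 FPKM in KO libraries and between 6.89 and 16.1 FPKM in controls, with overlapping groups. Gabarapl1, an autophagy gene of the ATG8 family in this stretch, measured 23.1, 11.6 and 27.4 FPKM in KO 1, 2 and 3, against 19.6, 73.5 and 50.5 FPKM in control 1, 2 and 3. The choice of these 4 genes followed their values, and 0 of them passed the threshold.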
